A study of Mus musculus with 51 samples.

Results

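*Olfr1280*, *Olfr169*, *Olfr171*, *Olfr13* and *Olfr47* are 5 of the 1117 mouse odorant receptor (OR) genes counted in each table of phosphorylated S6 ribosomal subunit capture with RNA sequencing (pS6-IP-Seq). They were chosen by name from the ORs that were higher after exposure to (E)-β-farnesene, so their values in that exposure and in its 3 control mice are a description and carry no test. ORs are the receptors with which olfactory sensory neurons (OSNs) bind volatile compounds, and a mature OSN expresses 1 OR gene, so the mRNA of an OR stands for the OSNs that carry it. In an active OSN the ribosomal protein S6 is phosphorylated. Antibody capture of pS6 retrieves ribosomes and their mRNA from recently active cells, and the OR mRNA of activated OSNs then takes a larger share of the OR reads than in diluent-exposed mice. A larger share from more active OSNs of a kind cannot be told apart from more retrieved RNA per OSN, nor a smaller share from fewer cells or less RNA per cell.

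The 51 libraries came from whole olfactory mucosa of juvenile mice about 3 weeks old, each exposed for 1 hr to 10 μL of an odorant or of diluent. They hold 30 libraries of 10 odor groups and 21 libraries of 7 control groups, with 3 mice in each group. The odors were the male mouse volatile SBT at 0.01%, 1% and 100%, the sulfur compound MTMT at 100 μM and 10 mM, the musk odorant CPD at 100 mM, DHB at 77%, 2,5-DMP at 1%, and the sesquiterpenes β-caryophyllene at 1% and (E)-β-farnesene at 100%. The (E)-β-farnesene, 2,5-DMP and 100 μM MTMT groups share 3 control mice, and the 1% and 100% SBT groups share 3 others. No genotype or other treatment separates the groups, and the labels do not give the diluent of each control. The methods describe diluent-exposed, litter-matched mice, water as the usual diluent and ethanol for MTMT and CPD, so the diluent of the control mice that (E)-β-farnesene and MTMT share is not settled by these sources.

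A library held 27301 to 160001 OR reads (median 93870), and shares below are the percent of a mouse's OR reads that came from 1 OR. Because the tables hold OR genes, the tissue could not be checked against markers of OSNs or other cells, and libraries are compared by the makeup of their OR reads. Replicates of every group differed by more than counting noise, with a chi-squared per degree of freedom of 5.22 to 28 over the 51 replicate pairs. The libraries that stood farthest from their own group were the 3 of 10 mM MTMT (19.9 to 28 between them), the 3 of 1% SBT (14 to 19.4), CPD replicate 2 (22 and 22.5, against 9.99 between the other CPD mice) and β-caryophyllene replicate 2 (23.6 and 24.5, against 9.92). Values described mouse by mouse for these exposures are therefore also given without 1 library.

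The 5 genes lie in 3 clusters of OR genes (GRCm38 coordinates). *Olfr1280* (ENSMUSG00000109449) lies on chr2:111314017-111326003, plus strand, with its coding sequence of 915 bases at chr2:111315481-111316395. *Olfr169* (ENSMUSG00000068535) lies on chr16:19564889-19571809 and *Olfr171* (ENSMUSG00000060480) on chr16:19623930-19629916, both on the minus strand, with coding sequences of 939 and 942 bases at chr16:19565943-19566881 and chr16:19624160-19625101. *Olfr13* (ENSMUSG00000043605) lies on chr6:43172140-43177460 and *Olfr47* (ENSMUSG00000061210) on chr6:43231529-43236959, both on the plus strand, with coding sequences of 930 and 963 bases at chr6:43173988-43174917 and chr6:43235610-43236572. Each coding sequence lies in 1 exon, as is usual for ORs, and no other annotated gene overlaps any of the 5. *Olfr169* and *Olfr171* are 52.1 kb apart with 1 OR of the tables, *Olfr170*, between them. *Olfr13* and *Olfr47* are 54.1 kb apart with *Olfr435* and *Olfr434* between them.

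The pair on chromosome 16 are near copies. Over their coding sequences *Olfr169* and *Olfr171* were 96.1% identical, and *Olfr170*, which lies between them and was not among the chosen genes, was 95.5% identical to *Olfr169* and 97.1% to *Olfr171*. The stretch of 150 coding bases with the most differing positions, near the end of the coding sequence, shows how little separates the 3 genes. It lies at chr16:19565945-19566094 in *Olfr169*, chr16:19624162-19624311 in *Olfr171* and chr16:19605730-19605879 in *Olfr170*, all on the minus strand and written 5′ to 3′ along the gene, with capitals at the 13 positions where the 3 differ.
Olfr169: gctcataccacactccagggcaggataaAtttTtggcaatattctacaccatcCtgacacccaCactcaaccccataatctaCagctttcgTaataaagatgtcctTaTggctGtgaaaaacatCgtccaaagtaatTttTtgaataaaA
Olfr171: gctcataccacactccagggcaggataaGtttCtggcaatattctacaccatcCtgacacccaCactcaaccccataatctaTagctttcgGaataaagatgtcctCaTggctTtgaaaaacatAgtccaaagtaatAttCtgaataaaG
Olfr170: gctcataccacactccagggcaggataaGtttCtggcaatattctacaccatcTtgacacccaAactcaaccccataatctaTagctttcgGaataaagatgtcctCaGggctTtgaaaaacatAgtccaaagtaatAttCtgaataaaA

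The pair on chromosome 6 are less alike, with 71% identity over the coding sequences. Their first 150 coding bases, at chr6:43173988-43174137 in *Olfr13* and chr6:43235610-43235759 in *Olfr47* on the plus strand, differ at the 41 positions in capitals.
Olfr13: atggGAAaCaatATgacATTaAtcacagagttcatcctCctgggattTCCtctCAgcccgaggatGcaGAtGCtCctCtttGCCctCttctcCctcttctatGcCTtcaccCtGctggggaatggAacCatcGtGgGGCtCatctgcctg
Olfr47: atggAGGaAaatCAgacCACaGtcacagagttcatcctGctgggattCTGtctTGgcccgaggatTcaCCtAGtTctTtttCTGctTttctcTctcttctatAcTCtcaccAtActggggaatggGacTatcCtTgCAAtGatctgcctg
The other pairs among the 5 were 55.2% to 57.2% identical, so the genes fall into *Olfr169* with *Olfr171*, *Olfr13* with *Olfr47* at a greater distance, and *Olfr1280* apart.

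*Olfr1280* and *Olfr47* also have near copies outside the 5. The relative of *Olfr1280* was *Olfr1283*, at 93.8% coding identity. In the 150 coding bases shown for this pair, at chr2:111316057-111316206 and chr2:111369210-111369359 on the plus strand, 23 positions differ.
Olfr1280: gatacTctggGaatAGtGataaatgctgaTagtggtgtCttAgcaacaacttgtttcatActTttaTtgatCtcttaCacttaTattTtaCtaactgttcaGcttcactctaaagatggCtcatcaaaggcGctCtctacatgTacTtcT
Olfr1283: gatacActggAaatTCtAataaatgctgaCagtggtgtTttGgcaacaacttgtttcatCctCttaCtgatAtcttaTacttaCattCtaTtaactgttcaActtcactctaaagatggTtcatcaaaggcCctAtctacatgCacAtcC
The relative of *Olfr47* was *Olfr434*, at 93.6%. The 150 bases at chr6:43235887-43236036 in *Olfr47* and chr6:43217192-43217341 in *Olfr434*, plus strand, differ at 21 positions, in capitals as above.
Olfr47: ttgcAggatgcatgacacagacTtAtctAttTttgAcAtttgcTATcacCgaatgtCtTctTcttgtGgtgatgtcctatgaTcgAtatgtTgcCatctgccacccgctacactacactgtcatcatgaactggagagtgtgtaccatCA
Olfr434: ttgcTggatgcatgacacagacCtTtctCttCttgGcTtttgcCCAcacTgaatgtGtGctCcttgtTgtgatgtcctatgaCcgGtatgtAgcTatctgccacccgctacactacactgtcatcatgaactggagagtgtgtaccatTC
The windows of these pairs hold part of the bases that let a read be assigned to 1 gene or the other. Every window shown, here and above, is the ungapped run of 150 coding bases with the most differing positions in its set.

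How far reads could be told apart between such copies limits every value below. Of the stretches of 50 bases in its transcripts, *Olfr171* shared 29.2% with another gene (44.3% of its coding stretches), *Olfr169* 19.4% (34.4%), *Olfr47* 18.9% (32.7%), *Olfr1280* 4.67% (40.3%) and *Olfr13* 1.12% (2.5%). *Olfr169* and *Olfr171* shared these stretches with each other and with *Olfr170*, *Olfr1280* mostly with *Olfr1283* and *Olfr1287*, and *Olfr47* mostly with *Olfr434*. Reads that fall in such a stretch were divided between the genes by estimation. The counts of *Olfr169*, *Olfr171* and *Olfr170* against one another are uncertain to that extent, as are those of *Olfr1280* and *Olfr47* against their relatives. Of the 5, *Olfr13* is the member whose reads were nearly all assignable.

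In control mice the 5 genes took very different shares of the OR reads. Over the 21 control mice the share ran from 0.217% to 0.652% (median 0.43%) for *Olfr169* and from 0.11% to 0.511% (0.213%) for *Olfr171*. It ran from 0.0295% to 0.139% (0.0586%) for *Olfr1280*, from 0.031% to 0.0964% (0.0552%) for *Olfr47*, and from 0.0139% to 0.0743% (0.038%) for *Olfr13*. By reads, *Olfr169* was between the rank 15 and rank 103 of all ORs in a control mouse and *Olfr13* between the rank 330 and rank 897. Levels of different genes compare only per length. As reads per 100000 OR reads and per kb of exon, the control median was 173 for *Olfr169*, 151 for *Olfr171*, 33.8 for *Olfr47*, 10.2 for *Olfr13* and 7.58 for *Olfr1280*. All reads of a gene, from any exon, divided by the kb of its coding length gave 458, 226, 57.3, 40.8 and 64 in the same order. This quotient is raised most for *Olfr1280*, which has 7721 exon bases and 915 coding bases. The order of *Olfr1280* against *Olfr47* and *Olfr13* therefore depends on the length used and is not settled.

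The mean control level also differed between experiments, for *Olfr47* by less than the larger SD of its lowest and highest groups. Group means over the 7 control groups ran from 0.283% ± 0.0296 (SD, n = 3) to 0.575% ± 0.072 for *Olfr169* and from 0.154% ± 0.0571 to 0.409% ± 0.0937 for *Olfr171*, in both cases lowest in the controls of 0.01% SBT. They ran from 0.0508% ± 0.0142 to 0.0971% ± 0.0437 for *Olfr1280* and from 0.0238% ± 0.0105 to 0.0531% ± 0.0184 for *Olfr13*. For *Olfr47* they ran from 0.0496% ± 0.00806 to 0.0659% ± 0.0292. The control mice shared by (E)-β-farnesene, 2,5-DMP and 100 μM MTMT had the lowest of the 7 means for *Olfr47* and stood in the middle of the order for *Olfr169* and *Olfr13*. Because of these differences each exposure was compared with its own control mice.

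After (E)-β-farnesene all 5 genes took a larger share of OR reads than in the 3 control mice, and in none of the 5 did the groups overlap. This pattern chose the genes. For *Olfr1280*, the share was 0.288%, 0.346% and 0.276% in the (E)-β-farnesene mice (341, 429 and 387 reads) and 0.0544%, 0.106% and 0.0907% in the control mice (34, 133 and 112 reads). Every exposed mouse was more than 2-fold above the highest control mouse. The log2 fold change was 1.88 (SE 0.26), the largest among the 5, and ranged from 1.71 to 2.06 when any 1 of the 6 mice was left out.

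*Olfr169*, the most abundant of the 5, stood at 1.33%, 0.998% and 0.913% after (E)-β-farnesene and at 0.422%, 0.412% and 0.612% in the controls. In the exposed mice it was between rank 5 and rank 9 of all ORs by reads. Its log2 fold change was 1.22 (SE 0.29; 0.98 to 1.41 with 1 mouse left out). Its near copy *Olfr171* stood at 0.537%, 0.519% and 0.359% against 0.237%, 0.213% and 0.25%, a log2 fold change of 1.07 (SE 0.26; 0.90 to 1.25), the smallest among the 5.

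The 2 genes of chromosome 6 had the fewest reads of the 5 in the exposed mice. *Olfr13* stood at 0.127%, 0.137% and 0.0797% (150, 170 and 112 reads) against 0.04%, 0.0328% and 0.0518% (25, 41 and 64 reads), a log2 fold change of 1.51 (SE 0.30; 1.33 to 1.73). *Olfr47* stood at 0.15%, 0.169% and 0.0712% against 0.0512%, 0.0408% and 0.0567%, a log2 fold change of 1.45 (SE 0.32; 1.25 to 1.76). The third exposed mouse was the lowest of the 3 for all 5 genes, and for *Olfr171*, *Olfr13* and *Olfr47* its share lay nearer to the highest control mouse than to the other exposed mice.

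Read against all ORs, after (E)-β-farnesene edgeR's quasi-likelihood test called 19 of 1071 ORs (1.77%) at the 0.05 threshold, all 19 higher (8 without exposed replicate 2, 28 without exposed replicate 3, of which 27 higher), and 5.32% of ORs had all 3 exposed mice above all 3 control mice. The median log2 fold change was 1.45 over the 5 genes and -0.03 over all ORs tested. As the contrast chose the genes, nothing is read from their count.

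As a fold, the 5 genes ranged from 2.09 (*Olfr171*) to 3.69 (*Olfr1280*), below the 4 ORs that lead the (E)-β-farnesene list, *Olfr11* at 6.71, *Olfr1312* at 6.65, *Olfr701* at 6.16 and *Olfr706* at 4.43. By fold they stood at 7 (*Olfr1280*), 10 (*Olfr13*), 12 (*Olfr47*), 14 (*Olfr169*) and 18 (*Olfr171*) in the order of the 19 ORs called with all 6 mice. In share of OR reads, the mean of *Olfr169* was 0.482% ± 0.113 in controls and 1.08% ± 0.223 in exposed mice (SD, n = 3 each), a difference of 0.6 percentage points. The difference was 0.239 points for *Olfr171*, 0.219 for *Olfr1280*, 0.0807 for *Olfr47* and 0.0729 for *Olfr13*. These differences depend on each gene's length and control level, so the genes are not ranked by them. The 5 genes together took 2.1% ± 0.374 of OR reads after (E)-β-farnesene and 0.891% ± 0.149 in its controls.

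**Figure D1:**
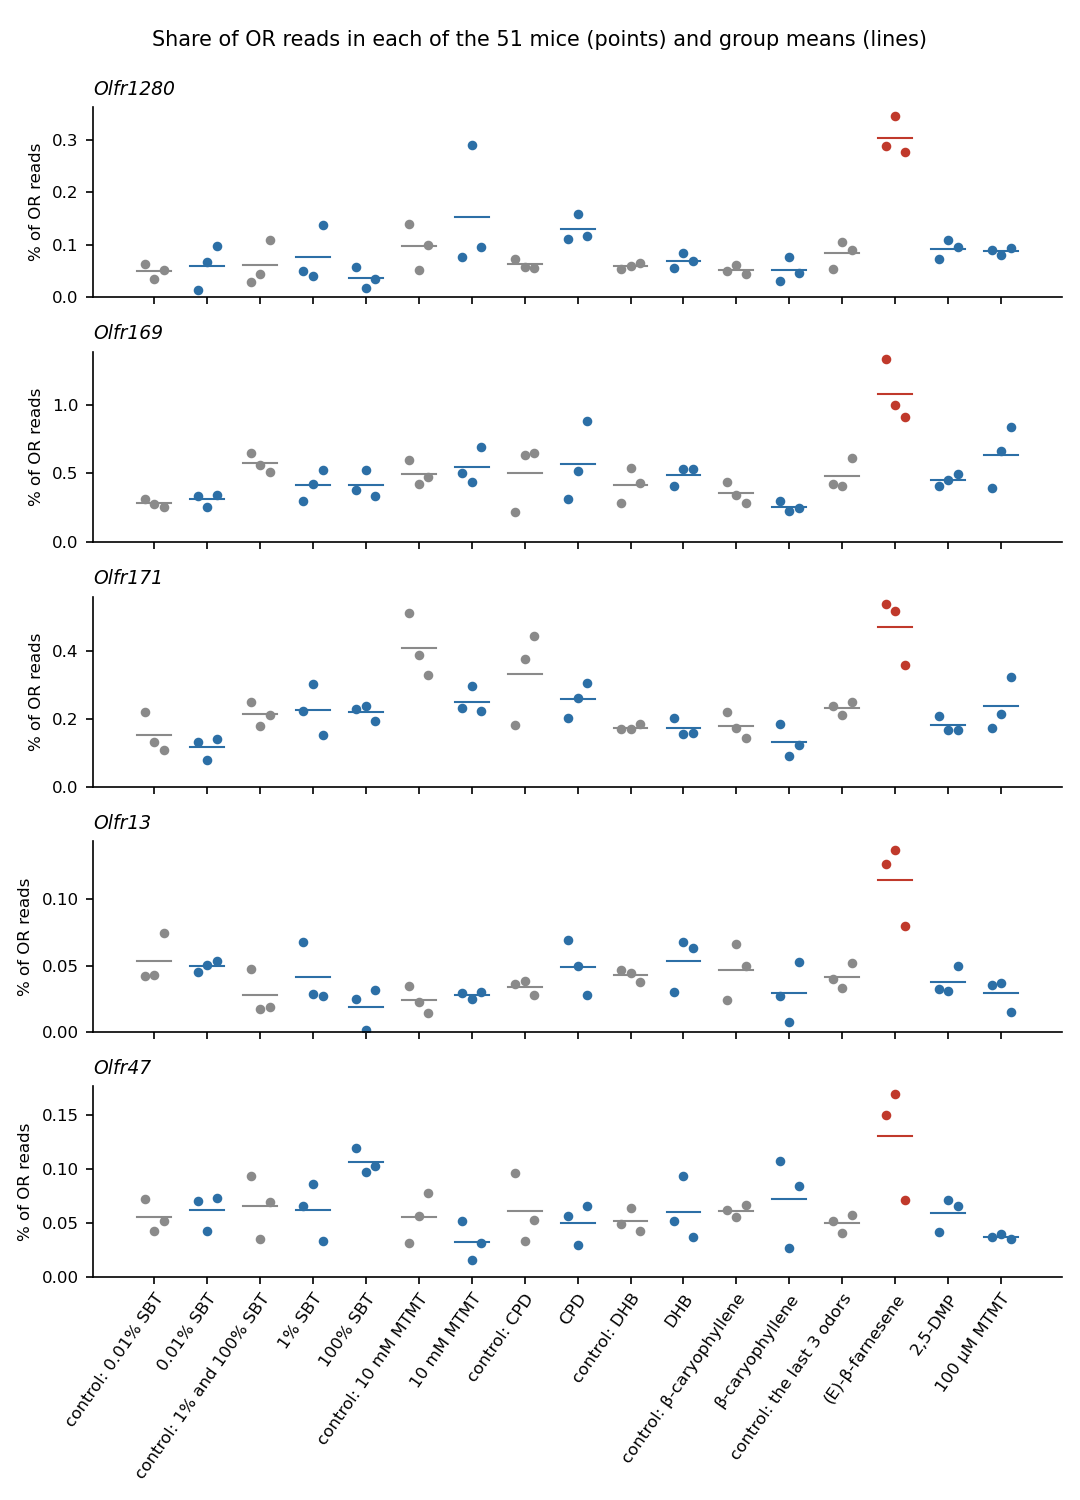
Share of OR reads (percent, linear axis from 0) of each of the 5 genes in every one of the 51 mice, by group, with points for mice and lines for group means (control mice grey, (E)-β-farnesene red, other odors blue). The (E)-β-farnesene group, which chose the genes, has the highest mean for each. The 1 other mouse in its range for Olfr1280 is 10 mM MTMT replicate 2 at 0.29%.

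Across all 17 groups the (E)-β-farnesene group had the highest mean of every one of the 5 genes. The next highest was a different group for each: 10 mM MTMT for *Olfr1280* (0.154% ± 0.118), 100 μM MTMT for *Olfr169* (0.632% ± 0.222), the controls of 10 mM MTMT for *Olfr171* (0.409% ± 0.0937), DHB for *Olfr13* (0.0536% ± 0.0208) and 100% SBT for *Olfr47* (0.106% ± 0.0115). The lowest means were 0.0368% for *Olfr1280* and 0.0189% for *Olfr13*, both after 100% SBT, 0.257% for *Olfr169* after β-caryophyllene, 0.117% for *Olfr171* after 0.01% SBT and 0.0324% for *Olfr47* after 10 mM MTMT. With the 17 means in order, the step from (E)-β-farnesene to the next group was the 1 step of 16 that exceeded the larger SD of its 2 groups for *Olfr1280*, *Olfr169* and *Olfr13*. For *Olfr171* no step did, and for *Olfr47* the 1 such step was from the shared control mice down to 100 μM MTMT. The genes were chosen for being high after (E)-β-farnesene, so its top place and these steps are a description. Such steps were not computed for other ORs.

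The 5 genes differed in how well single mice of the (E)-β-farnesene group stood apart. These mice chose the genes, and the share of all ORs that stand apart in this way was not computed. The values are therefore a description, and nothing is read from the counts. For *Olfr169* and *Olfr13* all 3 mice were above each of the 48 other mice, whose highest values were 0.88% (CPD replicate 3) and 0.0743% (a control of 0.01% SBT). For *Olfr1280*, 1 of the 48 reached the lowest (E)-β-farnesene mouse, 10 mM MTMT replicate 2 at 0.29%. For *Olfr171*, 4 of the 48 did so, all of them control mice of other experiments, and for *Olfr47* 12 did so.

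None of the closest relatives outside the 5 passed the threshold after (E)-β-farnesene, where 1.77% of all ORs tested did. With so few relatives, 0 calls can occur at that share whether or not they differ from the rest. *Olfr170*, between *Olfr169* and *Olfr171* on the chromosome and 97.1% identical to *Olfr171*, had shares of 0.197%, 0.149% and 0.131% after (E)-β-farnesene and of 0.142%, 0.175% and 0.151% in the controls. The groups overlapped, and the log2 fold change was 0.08 (SE 0.25, 95% interval -0.43 to 0.59). *Olfr1283*, the relative of *Olfr1280*, had 0.63 (SE 0.39) and *Olfr434*, the relative of *Olfr47*, -0.30 (SE 0.43). *Olfr447*, the relative of *Olfr13* at 81.3% identity, had 0.31 (SE 0.47). Of the 11 ORs outside the 5 that were among the 3 closest relatives of any of them, 0 of 11 tested passed by edgeR's quasi-likelihood test, 0 by DESeq2, and 0 had an unadjusted p under 0.05, with log2 fold changes from -1.68 to 0.63 (median -0.15). These ORs were picked by sequence rather than by response, but the contrast is the one that chose the 5, and the difference between them and the 5 was not tested.

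**Figure D2:**
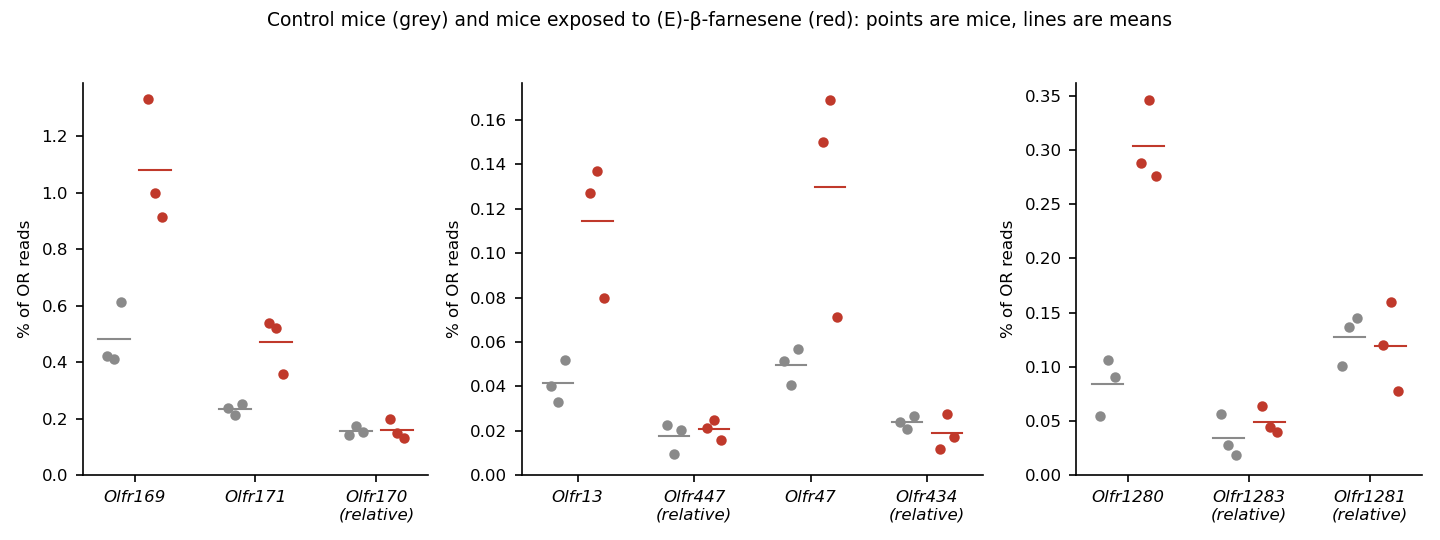
Share of OR reads (percent, linear axes from 0, 1 scale per panel) in each of the 3 (E)-β-farnesene mice (red) and the 3 control mice (grey), with lines for means, for the 5 genes and their close relatives outside the 5. For Olfr169 and Olfr171 the exposed mice lie above the controls, while for Olfr170 (0.131% to 0.197% against 0.142% to 0.175%) they overlap. Reads in stretches that these 3 genes share were divided by estimation.

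Neighbors outside the 5 did not pass the threshold after (E)-β-farnesene either, where 1.77% of all ORs tested did. At that share a list this short can hold 0 calls whether or not its ORs differ from the rest, and this contrast chose the 5. *Olfr169* with *Olfr171*, and *Olfr13* with *Olfr47*, are also neighbors of each other and are left out of the list. The tables hold 20 other ORs within 100 kb of any of the 5, and 19 had enough reads to be tested. After (E)-β-farnesene 0 of 19 passed by edgeR's quasi-likelihood test, 0 by DESeq2, and 0 had an unadjusted p under 0.05, while their log2 fold changes ran from -0.57 to 0.93 with a median of -0.15. The neighbor nearest to *Olfr1280* was *Olfr1281*, 0.516 kb away, at -0.06 (SE 0.27). That nearest to *Olfr13* was *Olfr437*, 2.28 kb away, at -0.07 (SE 0.30), and to *Olfr169* it was *Olfr168*, 29.3 kb away, at -0.44 (SE 0.29). *Olfr170*, 12 kb from *Olfr171*, and *Olfr434*, 13.4 kb from *Olfr47*, are the relatives described above. In exposures whose control mice did not choose the genes, 1 neighbor of 19 passed, after 100% SBT, where 11.3% of all ORs did and where DESeq2 called 2 of the 19. It was *Olfr166*, near *Olfr169*, at 1.84 (SE 0.25, adjusted p = 0.000342, edgeR's quasi-likelihood test) after 100% SBT and 1.63 (adjusted p = 0.00603) in 100% against 1% SBT, where 7.53% of all ORs were called.

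**Figure D3:**
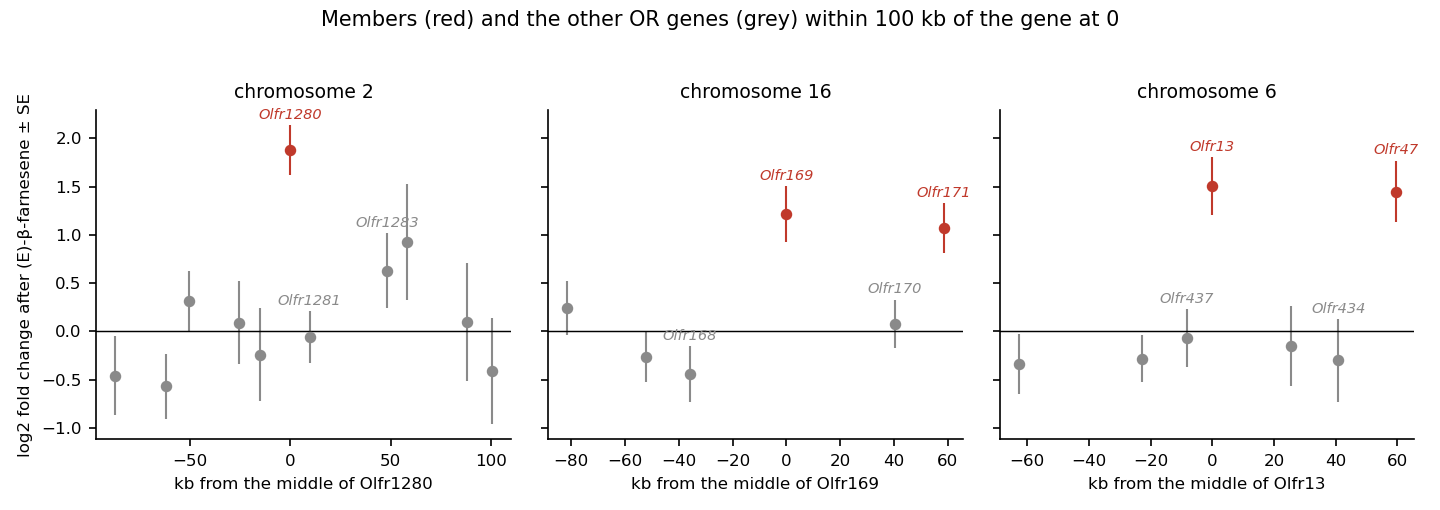
Log2 fold change after (E)-β-farnesene of the 5 genes and of the ORs within 100 kb, against distance in kb from the middle of Olfr1280, Olfr169 or Olfr13 (3 panels), with the 5 genes in red, the others in grey and bars for 1 standard error either way. Olfr169 and Olfr171 stand at 1.22 and 1.07 with Olfr170 at 0.08 between them, and reads that these 3 genes share were divided by estimation. Olfr13 and Olfr47 stand at 1.51 and 1.45 with Olfr435 and Olfr434 at -0.15 and -0.30 between them.

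Within the chromosome 16 pair the balance of reads stayed inside its usual range. For every 100 reads of *Olfr169* there were 39.3 to 52.1 reads of *Olfr171* in the (E)-β-farnesene mice, 40.9 to 56.1 in their controls and 29.1 to 91.3 (median 49) over the 48 other mice. The 3 controls of 10 mM MTMT, at 68.8 to 91.3, had the highest mean ratio of the 17 groups. For every 100 reads of *Olfr47* there were 81 to 112 reads of *Olfr13* in the (E)-β-farnesene mice and 78.1 to 91.4 in their controls. Over the 48 other mice this ratio ran from 0.99 to 174 (median 72.9), and its lowest value was that of 100% SBT replicate 2, where *Olfr13* had 1 read.

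Whether any of the 5 genes also responded to another odor was tested in 7 exposures whose control mice had no part in choosing the genes. The 1% and 100% SBT groups share their control mice, so their values are not independent. None passed the threshold of 0.05. In edgeR's quasi-likelihood test 0 of 35 values did so after Benjamini-Hochberg adjustment, while 2 had an unadjusted p below it. DESeq2 called 0 of 35. The background of ORs called in the same tests was 0.466% after 0.01% SBT, 0.863% after 1% SBT, 11.3% after 100% SBT, 0% after 10 mM MTMT, 0% after CPD, 0.564% after DHB and 0% after β-caryophyllene. In the 3 exposures with no call over all ORs, unadjusted p values under 0.05 numbered 69 for 10 mM MTMT, 40 for CPD and 51 for β-caryophyllene, and DESeq2 called 15, 1 and 0 ORs. Of the 35 log2 fold changes, 20 lay within 1 SE of 0, 3 were above 1 and 0 were below -1.

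*Olfr1280* had values from -0.27 (SE 0.58, 100% SBT) to 1.20 (SE 0.33, CPD). *Olfr169* ranged from -0.39 (SE 0.34, β-caryophyllene) to 0.47 (SE 0.35, 10 mM MTMT) and *Olfr171* from -0.37 (SE 0.33, 0.01% SBT) to 0.44 (SE 0.30, 100% SBT), the narrowest ranges of the 5. Scaled by library totals alone, *Olfr169* was 0.13 after 10 mM MTMT and *Olfr171* 0.05 after 100% SBT, where the medians of all ORs were -0.28 and -0.46. *Olfr13* ranged from -0.66 (SE 0.63, β-caryophyllene) to 0.70 (SE 0.72, 1% SBT), with the widest errors. *Olfr47* ranged from -0.48 (SE 0.45, 10 mM MTMT) to 1.09 (SE 0.43, 100% SBT). After β-caryophyllene, the other sesquiterpene, the log2 fold change of *Olfr1280* was 0.08 (95% interval -0.89 to 1.05), and the 95% interval was -1.13 to 0.35 for *Olfr169* and -1.16 to 0.43 for *Olfr171*. It was -2.01 to 0.70 for *Olfr13* and -0.71 to 1.32 for *Olfr47*. Without β-caryophyllene replicate 2, which stood apart, the log2 fold changes were -0.31 for *Olfr169*, -0.16 for *Olfr171*, -0.19 for *Olfr13*, 0.71 for *Olfr47* and -0.35 for *Olfr1280*, whose sign turned. With 1 library left out, *Olfr13* ranged from 0.02 to 1.36 after 1% SBT, and after 10 mM MTMT *Olfr169* ranged from 0.17 to 0.65 and *Olfr47* from -0.79 to -0.17. The 2 sesquiterpenes were given at 1% and 100%, so their values stand side by side and are not compared.

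The largest tested value was *Olfr1280* after CPD. Its share was 0.112%, 0.159% and 0.117% in the CPD mice (68, 232 and 120 reads) and 0.0737%, 0.0586% and 0.0565% in the controls (39, 37 and 39 reads). The groups did not overlap, as for 2.19% of ORs in that comparison. The log2 fold change of 1.20 had an adjusted p of 0.993 in edgeR's quasi-likelihood test (0.00324 before adjustment). The adjusted p stayed between 0.201 and 0.999 over the alternatives, and without CPD replicate 2, the mouse that stood apart, the value was 0.90.

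*Olfr1280* after 10 mM MTMT rested on 1 mouse. Its share was 0.0759%, 0.29% and 0.0956% in the exposed mice and 0.139%, 0.0523% and 0.0994% in the controls. Replicate 2 held 247 reads of *Olfr1280*, a share with a 95% Wilson interval of 0.256% to 0.328%, and the other 2 exposed mice lay within the range of the controls. Wilson intervals cover counting error alone. The log2 fold change was 1.06 (SE 0.57, adjusted p = 0.892, edgeR's quasi-likelihood test; 0.239 to 0.971 over the alternatives), and 0.14 without that mouse. It was 0.68 with library totals.

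*Olfr171* after 10 mM MTMT had lower shares in all 3 exposed mice, at 0.232%, 0.297% and 0.224% against 0.511%, 0.387% and 0.328%, as for 13.5% of ORs there. A two-sided exact permutation test gave p = 0.1, the smallest that 3 mice against 3 allow. The log2 fold change, which is relative to the other ORs after scaling, was -0.37 (SE 0.32, adjusted p = 0.969, edgeR's quasi-likelihood test; 0.482 to 0.997 over the alternatives). It was -0.14 without control replicate 1 and -0.70 with library totals, under which the median of all ORs was -0.28 in place of 0.03. Its control group held the highest mean of *Olfr171* among the 7 control groups.

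After 100% SBT, where 11.3% of ORs were called, *Olfr47* stood at 0.119%, 0.0966% and 0.103% and its controls at 0.0931%, 0.035% and 0.0696%. All 3 exposed mice were above all 3 controls, as for 13.3% of ORs, and the exact permutation test, two-sided, gave p = 0.1. The log2 fold change was 1.09 (SE 0.43) with an adjusted p of 0.147 in edgeR's quasi-likelihood test (0.0242 before adjustment). Leaving out the control mouse with the highest share, replicate 1, gave 1.50 with an adjusted p of 0.0476, the 1 alternative of 13 that passed (range 0.0476 to 0.359). Scaling by library totals, under which the median of all ORs was -0.46 in place of -0.08, gave 0.70.

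*Olfr13* in the same mice had few reads and a direction that depended on single mice. It had 20, 1 and 18 reads after 100% SBT and 21, 10 and 5 in the controls, and the single read of replicate 2 was a share of 0.000957% (95% Wilson interval 0.000169% to 0.00542%). The log2 fold change was -0.24 (SE 0.91). It was 0.44 without control replicate 1 and 0.38 without 100% SBT replicate 2.

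**Figure D4:**
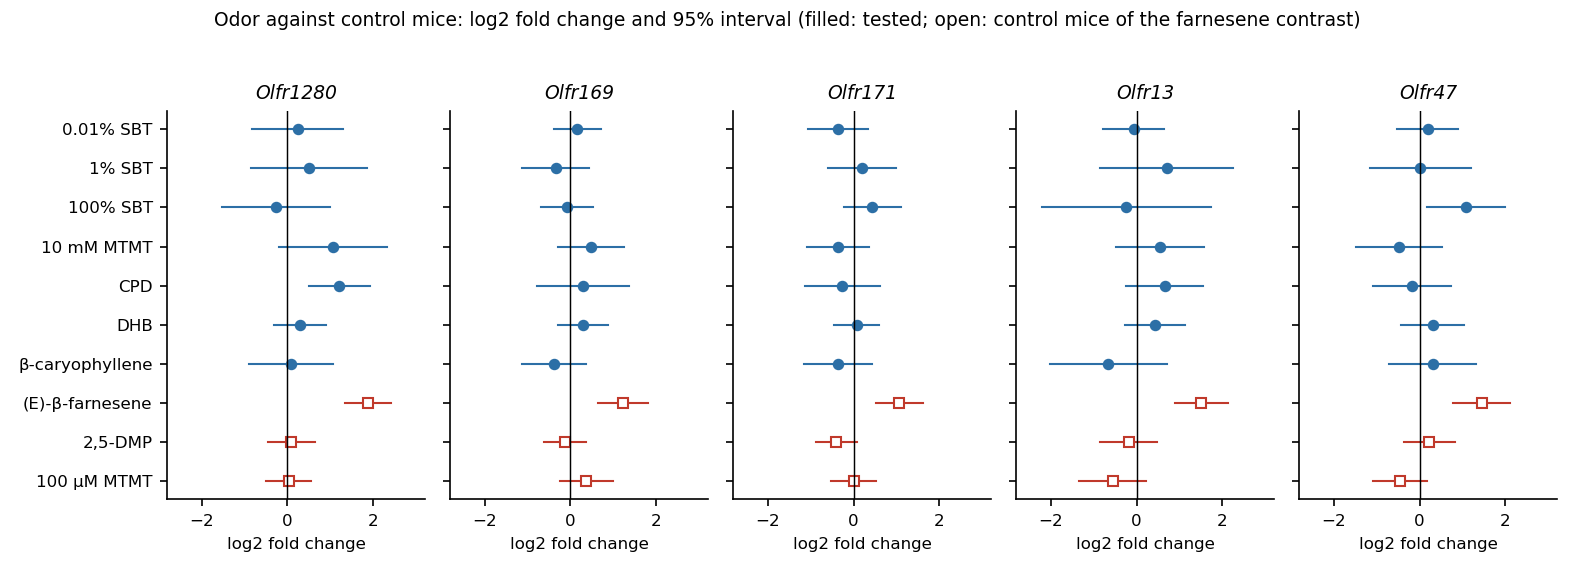
Log2 fold change against control mice of each of the 5 genes in 10 exposures, with bars for 95% intervals. Filled blue points are the 7 exposures with control mice of their own, and open red squares the 3 that share the control mice of (E)-β-farnesene. Exposure to (E)-β-farnesene chose the genes, and for each gene its value (1.07 to 1.88 over the 5) is the highest of the 10. The blue points scatter around 0 from -0.66 to 1.20.

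For SBT the dose itself could be compared. Between 100% and 1% SBT, 7.53% of ORs were called and 0 of the 5 genes (1 with an unadjusted p under 0.05), and between 1% and 0.01% SBT 0% of ORs were called and 0 of the 5 (0 with an unadjusted p under 0.05), by edgeR's quasi-likelihood test. DESeq2 called 0 of the 5 in both, and 1 OR of 1082 between 1% and 0.01% SBT, where 48 had an unadjusted p under 0.05. The gene with the unadjusted p under 0.05 was *Olfr47*, at 1.09 for 100% over 1% SBT (SE 0.46, adjusted p = 0.225; 0.152 to 0.505 over the alternatives). Its mean share was 0.0613% at 1% SBT, 0.106% at 100% and 0.0659% in the controls they share. In the separate 0.01% SBT experiment it was 0.0618% against 0.055% in that experiment's controls, and the contrast of 1% with 0.01% SBT compared the differences of each from its own controls. *Olfr1280* and *Olfr13* had -0.78 (SE 0.61) and -0.90 (SE 0.85) for 100% over 1% SBT, and both 95% intervals held 0.

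After 2,5-DMP and 100 μM MTMT, which share the control mice of (E)-β-farnesene, values are given side by side with no test. *Olfr1280* had log2 fold changes of 0.09 after 2,5-DMP and 0.03 after 100 μM MTMT, *Olfr169* -0.13 and 0.37, and *Olfr13* -0.18 and -0.55. *Olfr171* had -0.40 after 2,5-DMP, with shares of 0.209%, 0.168% and 0.167% below the controls' 0.237%, 0.213% and 0.25%, as for 2.8% of ORs. After 100 μM MTMT its mean share was 0.237%, against 0.233% in the controls. *Olfr47* had 0.23 after 2,5-DMP and -0.45 after 100 μM MTMT, where its shares of 0.0363%, 0.0393% and 0.0348% were below the controls' 0.0512%, 0.0408% and 0.0567%, as for 3.75% of ORs.

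Over the 17 group means, the OR whose log2 share most resembled that of *Olfr1280* was *Olfr169* (Pearson r = 0.81), out of 1015 ORs tested in all exposures. Those nearest to *Olfr169* were *Olfr1280* and then *Olfr171* (r = 0.80), and *Olfr171* was nearest to *Olfr169* and then to *Olfr166* (r = 0.72). With the (E)-β-farnesene group left out, these correlations over 16 means were 0.63 for *Olfr1280* with *Olfr169*, 0.70 for *Olfr169* with *Olfr171* and 0.75 for *Olfr171* with *Olfr166*. *Olfr13* was nearest to *Olfr983* (r = 0.82, or 0.68 without that group) and *Olfr47* to *Olfr906* (r = 0.82, or 0.74). *Olfr1312* and *Olfr706*, which lead the (E)-β-farnesene list, were among the 3 nearest to *Olfr1280* (r = 0.74, or 0.28) and *Olfr47* (r = 0.80, or 0.69). Neither of the chromosome 6 genes was among the 3 nearest to the other. The group means share control mice, libraries and depth, and reads divided between near copies tie *Olfr169* to *Olfr171*, so these values are a description.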

How the data were processed

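Expected counts of reads per OR gene and library were estimated by the authors with STAR and RSEM on GRCm38 (reads of 50 or 75 bases, at most 10 alignments) and deposited as whole numbers without normalization, beside comparison columns (log2 fold change, logCPM, likelihood ratio, p, FDR) that were not used. In the table of a further odorant, 6 count columns match no sample in the labels and were not used. The genes and lists were chosen with earlier results of these data known.

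Groups were tested with glmQLFit and glmQLFTest of edgeR 4.0.16 (R 4.3.3) after TMM scaling across the OR genes, keeping ORs that reached 10 reads summed over the 6 libraries, with Benjamini-Hochberg adjustment over all ORs tested and a threshold of 0.05. Intervals are 95%. The script was tested on simulated data. Two-sided exact permutation tests (scipy 1.17.1) used log2 of the share per 100000 OR reads plus a pseudocount of 5, with 1 as an alternative. Other alternatives were DESeq2 1.42.0, a block for the replicate number, scaling to library totals alone, a minimum of 1 read, filterByExpr, the likelihood ratio test, 1 fit of all 51 libraries, shares without the 5 most counted ORs, and each library left out. Coding identity (biopython 1.88) and positions came from GENCODE M21 on GRCm38, where all 1117 gene IDs matched and 1114 had a coding sequence; it stands in for a planned protein identity. Named ORs were the 5 genes, ORs among the 3 most similar in pattern to each, the closest relatives and the nearest neighbors. Neighbors past the threshold and 4 ORs that lead the (E)-β-farnesene list were also named. The ORs between paired genes were named for their position.

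Replicates were separate mice. The labels do not say that equal numbers mark a litter. Deviations from the group means of same-numbered mice correlated above 0.1 for every number in 1% SBT, 100% SBT, CPD, DHB, β-caryophyllene and 2,5-DMP. The main fits and the permutation tests nonetheless treated the mice as unpaired in every exposure. Pairing by number entered through the replicate block alone, as an alternative.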

Additional observations from a re-analysis of the deposited data

How the results depend on the processing

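Of 108 recomputed counts of the 5 genes past the threshold, 107 equaled the count reported. The exception was 100% SBT, where the count was 1 in place of 0 without control replicate 1 (leave-one-out range 0 to 1), the gene being *Olfr47* at a log2 fold change of 1.50. With the replicate block, which treats equal replicate numbers as pairs, 0 of the 5 genes passed in each of the 7 tested exposures. The block changed no call of the 5 there. The 19 tested values named above were recomputed 235 times, of which 225 kept their direction and side of the threshold and 9 reversed. *Olfr13* after 100% SBT (-0.24) was 0.44 without control replicate 1 and 0.38 without 100% SBT replicate 2 (leave-one-out range -0.71 to 0.44). *Olfr1280* after 100% SBT (-0.27) was 0.38 without control replicate 3 and 0.08 without 100% SBT replicate 2 (range -0.79 to 0.38). *Olfr1280* after β-caryophyllene (0.08) was -0.00168 with the replicate block, -0.01 with library totals, -0.05 without control replicate 3 and -0.35 without β-caryophyllene replicate 2 (range -0.35 to 0.36). *Olfr47* after β-caryophyllene (0.31) was -0.10 without β-caryophyllene replicate 1 (range -0.10 to 0.71). The lowest control mean of *Olfr169*, 0.283%, was 0.316% without the 5 most counted ORs. Counts over all ORs moved more: 0 to 28 (9 as reported) after 1% SBT, 0 to 38 (0) after 10 mM MTMT, 8 to 28 (19) after (E)-β-farnesene, 3 to 7 (5) after 0.01% SBT, 7 to 17 (9) after 2,5-DMP, 0 to 7 (3) after 100 μM MTMT, 4 to 8 (6) after DHB, 50 to 106 (80) for 100% over 1% SBT, 0 to 1 (0) for 1% over 0.01% SBT and 0 to 1 (0) after CPD. After 100% SBT the count ran from 89 to 160 (119 in the main fit). Library totals turned the split after 100% SBT from 111 higher and 8 lower to 84 and 39, and for 100% over 1% SBT from 76 and 4 to 48 and 13. The causes were not tested. Having 3 mice in each group limits all tests.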
